A study of Mus musculus with 4 samples.

Results

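Expression of 2 stress-induced hormone genes, Fgf21 and Gdf15, and of 3 genes for the receptor proteins through which FGF hormones act on liver cells, Klb, Fgfr1 and Fgfr4, was compared between hepatocyte preparations of mice with a liver-specific knockout of Pnpt1 (HepKO) and of wild-type (WT) mice. The members were found by the RefSeq accession that the array files give for each probe, which was matched to gene symbols and their aliases. 9 of 41174 probes matched, and all 5 genes were among the 11505 genes tested. A gene passed where its adjusted p in limma's moderated test was below 0.05, and values after ± are moderated standard errors over 2 pairs of mice. Fgf21 was higher in HepKO by 1.69 ± 0.14 on the log2 scale, or 3.23-fold. The amount was nearly the same in both pairs under the background correction used here. Klb was lower by 1.64-fold, a call that was lost under most of the other processing settings. Gdf15, Fgfr1 and Fgfr4 did not pass the test. Each kept its sign on 4 of 4 arrays, but these arrays come from only 2 pairs of mice. The share of all genes with the same sign on every array was not counted, so these signs do not add to the test.

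The product of Pnpt1, PNPase, is a mitochondrial enzyme that degrades and processes RNA. All 4 mice were C57BL/6J and carried Pnpt1 fl/fl, that is, both alleles floxed. The HepKO mice also carried 1 copy of Albumin-Cre, whose promoter is active in hepatocytes, and the WT mice are labelled as Pnpt1 fl/fl with no Cre named. The breeding scheme is labelled neo-fl/neo-fl. A HepKO and a WT mouse of the same litter, age and sex formed a pair, with 1 pair labelled male and aged 12.29 weeks and 1 pair labelled female and aged 4.29 weeks. Other label fields give the male pair a slightly different age. The HepKO mice weighed 17.37 g in the male pair and 16.81 g in the female pair, and their WT partners weighed 22.7 g and 18.49 g. RNA came from pelleted cells of collagenase-perfused livers, and the labels name no sort for hepatocytes. Each pair was hybridised on 2 arrays of 1 slide with the dyes exchanged (replicate 1 with HepKO in Cy5, replicate 2 with HepKO in Cy3), so that n = 2 pairs throughout, and between the pairs a difference of sex cannot be told apart from one of age or slide.

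The arrays raised 2 points about the samples before any comparison. In both genotypes of the pair labelled female, 3 genes of the Y chromosome (Ddx3y, Eif2s3y, Kdm5d) stood well above background on 2 of 2 arrays, whereas in the male-labelled pair they did so on 0 of 2. Xist, the RNA of the inactive X, showed the opposite, which is the reverse of the sex each pair is labelled with. The labels' names are used here, and no ratio below depends on those names, since each compares partners of 1 pair. The knocked-out gene was read by 2 probes, at a log2 ratio of -0.10 ± 0.20 (limma adjusted p = 0.747) for the brighter and -0.52 ± 0.13 (adjusted p = 0.0802 over all kept probes) for the dimmer, so that neither passed. The brighter probe was higher in HepKO on both arrays of the male pair (0.31 and 0.058) and lower on both of the female pair (-0.38 and -0.38), whereas the dimmer was lower on 4 of 4 arrays. The sources used here do not place these probes relative to the deleted part, and where they lie outside it they do not check the labels. The preparations carried hepatocyte RNA, since all 13 measured hepatocyte markers, Alb (albumin) and Ttr (transthyretin) among them, were well above background in HepKO and WT on 4 of 4 arrays.

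FGF21 is a hormone that the liver secretes during fasting, amino acid shortage and mitochondrial dysfunction. GDF15, a distant member of the TGF-beta family, is secreted by many stressed cells and acts on a receptor in the hindbrain that curbs food intake. Because both are released when mitochondria are disturbed, they are often called mitokines. FGF21 binds the co-receptor beta-klotho, the product of Klb, together with an FGF receptor, in most target tissues the product of Fgfr1. In hepatocytes beta-klotho is paired mainly with FGFR4, the receptor for the intestinal hormone FGF15, which represses bile acid synthesis. The transcription factors ATF4 and CHOP of the integrated stress response induce both Fgf21 and Gdf15, PPARA induces Fgf21, and p53 induces Gdf15.

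The promoters of the 2 hormone genes are shown because both genes are known targets of ATF4, whose composite site with C/EBP factors has the core TGATGNAA. Each is the 250 bases before a RefSeq start site, read 5′ to 3′ on the gene's own strand, the minus strand, in build GRCm38.p6. Capitals mark a match on either strand to TGATGNAA, to the E-box CACGTG or to the TATA box TATAAA. The E-box and the TATA box were added after the sequences had been read.
Fgf21, chr7:45615491-45615740: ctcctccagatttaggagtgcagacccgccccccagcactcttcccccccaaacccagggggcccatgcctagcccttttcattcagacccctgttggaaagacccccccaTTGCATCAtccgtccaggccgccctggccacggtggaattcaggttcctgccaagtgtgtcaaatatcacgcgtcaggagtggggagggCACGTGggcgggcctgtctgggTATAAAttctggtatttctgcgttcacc
Gdf15, chr8:70632457-70632706: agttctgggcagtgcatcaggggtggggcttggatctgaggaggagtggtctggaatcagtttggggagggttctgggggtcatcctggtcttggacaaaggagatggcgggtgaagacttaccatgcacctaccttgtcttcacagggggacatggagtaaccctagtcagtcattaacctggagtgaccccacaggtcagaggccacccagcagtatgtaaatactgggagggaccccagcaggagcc
The Fgf21 window held a TGATGNAA match at positions -139 to -132 from the start, an E-box at -50 to -45 and a TATA box at -28 to -23. Among all 32851 promoter windows of that length, 3.45% held a TGATGNAA match, 6.02% an E-box and 12.4% a TATA box. The Gdf15 window shown held none of these letters, and the window of a second RefSeq start of Gdf15 held an E-box. The cAMP response element TGACGTCA (in 1.55% of windows), the ER stress element (0.113%) and the PPAR and RXR direct repeat with a 1-base spacer (0.0335%), searched on both strands, were in none of the 5 windows of Fgf21, Gdf15, Klb and Fgfr4. A match is a run of letters and not a measured binding site.

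Fgf21 was higher in HepKO on every array. Probe A_51_P315925 had normalised log2 intensities of 6.52 and 6.93 in the WT male mouse and 8.30 and 8.54 in its HepKO partner on the 2 arrays of that pair. In the female pair the levels were 7.72 and 7.99 in WT and 9.46 and 9.64 in HepKO. The HepKO and WT levels did not overlap, and both mice of the female pair lay above their counterparts in the male pair. The share of all genes whose levels separate in this way was not counted, here or for the genes below. The log2 ratios of the 4 arrays, 1.78 and 1.61 in the male pair, against 1.73 and 1.65 in the female, lay close together. The mean was 1.69 ± 0.14 (n = 2 pairs, limma adjusted p = 0.0146), with a 95% interval from 1.31 to 2.08. Of all genes tested, 4.55% had a higher log2 ratio. The other Fgf21 probe, A_52_P235347, gave 1.52, 1.27, 1.52 and 1.61 on the same arrays, with a mean of 1.48 ± 0.13 (adjusted p = 0.0225 over all kept probes). Both probes are dim, and the background correction adds an offset of 50, which draws the ratios of dim signals toward 0. Above local background, the first probe read 43.8 and 36.7 in WT and 260 and 403 in HepKO in the male pair. In the female pair it read 146 and 153 in WT and 838 and 712 in HepKO. The likeness of the pairs therefore depends on the offset, and they were not set against each other without it. The background-subtracted log ratios of the scanner software put the first probe at 2.25. The call was lost when the background model was fitted on all spots (1.43, adjusted p = 0.114) and without the filter on dim probes (adjusted p = 0.0691).

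**Figure D1:**
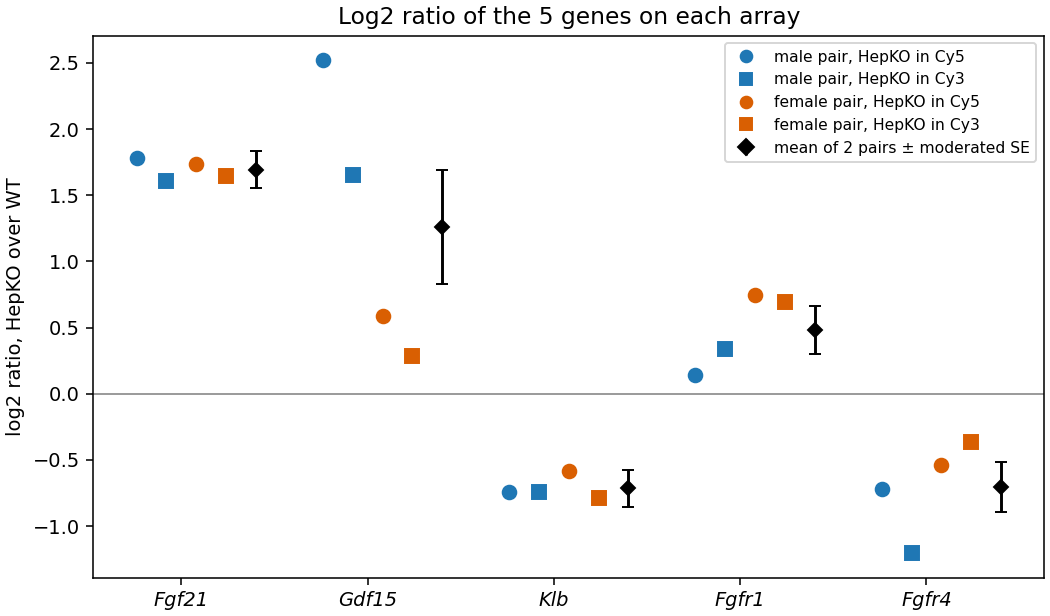
Log2 ratio of HepKO over WT for the probe that stands for each of the 5 genes, on each of 4 arrays (blue, male pair; orange, female pair; circles, HepKO in Cy5; squares, HepKO in Cy3), with the mean of 2 pairs and its moderated SE as black diamonds. The 4 Fgf21 points lie between 1.61 and 1.78, while those of Gdf15 spread from 0.29 to 2.52.

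Gdf15 was higher in HepKO on each array, by amounts that differed between the pairs. Its only probe had log2 levels of 10.14 and 11.05 in the WT male mouse and 12.67 and 12.70 in the HepKO male mouse. In the female pair WT stood at 10.68 and 10.92 and HepKO at 11.27 and 11.20. No HepKO level overlapped a WT level, but the female HepKO mouse lay just above the highest WT value. The ratio was 2.09 in the male pair, from 2.52 and 1.65 on its arrays, and 0.44 in the female pair, from 0.59 and 0.29. The mean of 1.26 ± 0.43 had an unadjusted p of 0.0412 and did not pass after adjustment (limma adjusted p = 0.124). Its 95% interval ran from 0.081 to 2.44, and 7.78% of genes had a higher ratio. Each pair is 1 replicate, so the difference of 1.65 between the pairs was not tested. The array with HepKO in Cy5 read higher than its dye-swapped partner in both pairs. Leaving out 1 array at a time gave means from 1.04 to 1.48. The neutrophil markers, 10 measured, also had unequal medians in the pairs, 1.42 and 0.41. Of them 3 were higher and none lower, against 12% and 3.71% of all genes. With the scanner software's ratios 8 of 10 passed as higher, and the median over both pairs was 2.84 in place of 0.97. Their mean log2 level ran from 6.92 to 7.88 in HepKO and from 6.23 to 6.48 in WT, where 1 of 10 was well above background on all arrays, and their part in the Gdf15 ratio was not tested.

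**Figure D2:**
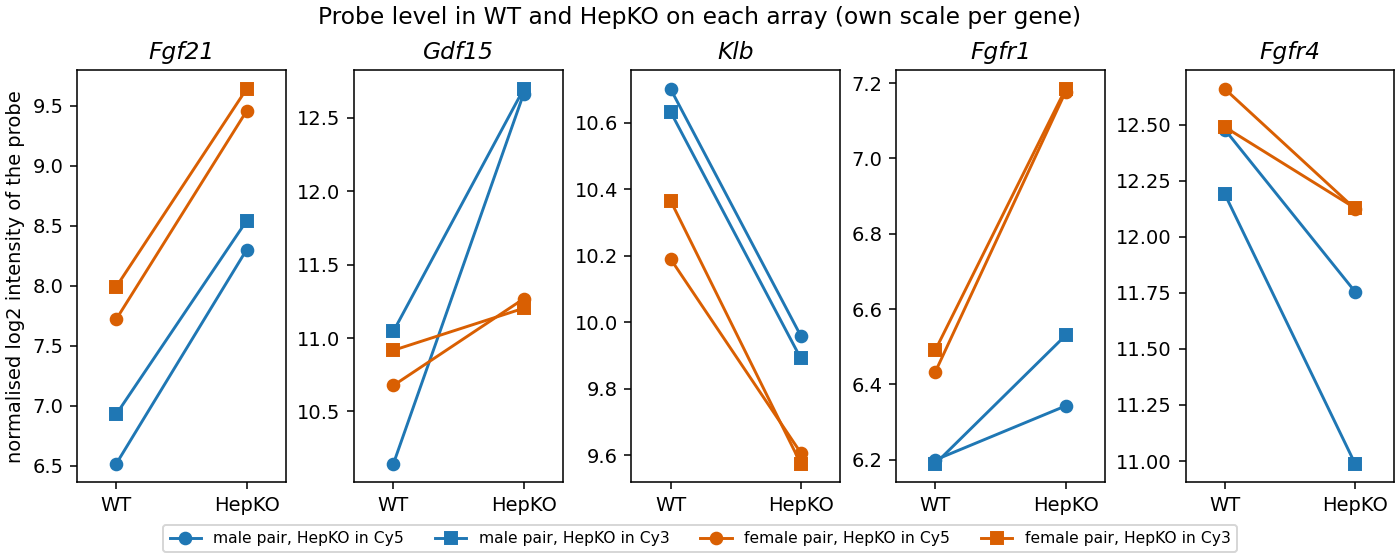
Normalised log2 intensity of each gene's probe in WT and HepKO, with a line for each of 4 arrays and a scale of its own for each gene, so that heights cannot be set against each other between genes. The Fgf21 lines run parallel from different WT levels, and the Gdf15 lines of the male pair are steeper than those of the female pair.

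Klb, which encodes the co-receptor that FGF21 and FGF15 both need, was lower in HepKO on every array. Its log2 level was 10.70 and 10.63 in WT against 9.96 and 9.89 in HepKO in the male pair, and 10.19 and 10.37 against 9.61 and 9.58 in the female pair. All HepKO levels lay below all WT levels, and the share of all genes for which this holds was not counted. The array ratios of -0.74, -0.74, -0.58 and -0.79 gave a mean of -0.71 ± 0.14 (limma adjusted p = 0.0462; 95% interval -1.10 to -0.33). This value lies close to the threshold, and in 11 of 16 alternative settings Klb did not pass, with its sign unchanged. The call was lost without male pair replicate 2 (adjusted p = 0.0733), without female pair replicate 1 (0.0527) and without female pair replicate 2 (0.0572). Klb and Fgfr4 are hepatocyte genes in liver. In bulk RNA, fewer cells of a type and less RNA per cell cannot be told apart.

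Fgfr4, the main FGF receptor of hepatocytes, had values below 0 throughout but did not pass. Levels were 12.48 and 12.19 in WT and 11.76 and 10.99 in HepKO in the male pair, and 12.66 and 12.49 in WT and 12.13 and 12.13 in HepKO in the female pair. HepKO and WT levels did not overlap, although the female HepKO mouse came close to the lowest WT value. The ratio was -0.96 in the male pair and -0.45 in the female pair, with a mean of -0.71 ± 0.19 (limma adjusted p = 0.0813). Its mean was nearly that of Klb, while the spread between its pairs was larger. 

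Fgfr1, the receptor through which FGF21 acts outside the liver, lay near background. The probe that stands for it, A_52_P668810, had levels of 6.20 and 6.19 in WT and 6.34 and 6.53 in HepKO in the male pair, and 6.43 and 6.49 in WT and 7.18 and 7.18 in HepKO in the female pair. The female HepKO mouse was the highest, and the HepKO and WT levels overlapped between the pairs. The mean ratio was 0.48 ± 0.18 (limma adjusted p = 0.148), from 0.24 in the male pair against 0.72 in the female. Probe A_51_P109469, printed in 10 spots per array, gave 0.23, 0.32, 0.48 and 0.61, with an SD between its spots of 0.092 to 0.15 within an array. Both of these probes gave higher ratios in the female than in the male pair. The other 2 Fgfr1 probes were not well above background in WT on any array. A_52_P136162 gave a mean of 0.25, or at least 1.17-fold. A_52_P552062 gave 0.11 and was well above background in HepKO on 2 arrays only, those of the female pair, so that no bound is given for it. With the background-subtracted ratios of the scanner software, Fgfr1 was at 1.12 (adjusted p = 0.0691), against 0.48 with the background correction used here. 

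Set against the whole array, 1805 of 11505 genes (15.7%) passed, of which 1378 (12%) were higher and 427 (3.71%) lower in HepKO. Among the 5 genes, 1 passed as higher and 1 as lower, a number too small to set against those shares. The median over all genes was 0.083. In Fgf21 and Klb the pairs differed by 0.0056 and 0.055, in Fgfr1 and Fgfr4 by 0.48 and 0.51, and in Gdf15 by 1.65. For the dim Fgf21 probe the gap depends on the offset of the background correction. Gdf15 and Fgfr4 had the larger change in the male pair, and Fgfr1 had it in the female pair.

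**Figure D3:**
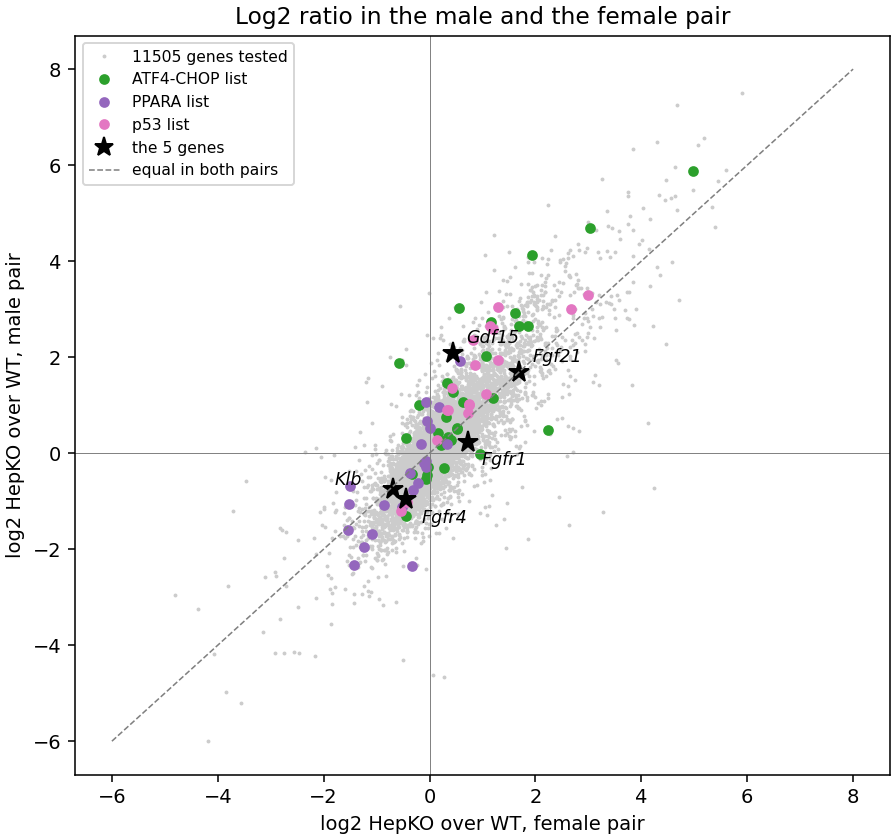
Log2 ratio of HepKO over WT in the female pair (horizontal) and the male pair (vertical) for 11505 genes (grey), the genes of 3 lists (green, purple, pink) and the 5 genes (stars), with the dashed line where both pairs are equal. Fgf21 lies on that line at 1.69 and 1.70, and Gdf15 above it at 0.44 and 2.09.

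Markers of several other liver cell types were higher on the same arrays, where 12% of all genes passed as higher and 3.71% as lower. Of 19 measured macrophage markers, 16 passed as higher and none as lower, with a median ratio of 2.00 and array medians from 1.74 to 2.20. Their mean log2 level ran from 10.60 to 10.80 in HepKO and from 8.33 to 9.21 in WT. Clec4f (1.22), a Kupffer cell lectin, and Cd5l (2.36) were among them, and 16 of 19 were well above background on all WT arrays, with Gpnmb and Ccr2 so on none. Of 15 endothelial markers 10 passed as higher (median 1.09; mean level 9.42 to 9.47 in HepKO, 8.17 to 8.62 in WT), and of 14 stellate and fibroblast markers 6 did (median 0.76; 8.51 to 8.63 against 7.57 to 7.90). Of 17 lymphocyte markers 10 passed as higher (median 0.99), of 7 cholangiocyte markers 2 did (median 0.56), and of 4 erythroid markers 1 was higher and 1 lower. Only 6 of the 17 lymphocyte markers were well above background on all WT arrays, against 16 on all HepKO arrays. Their mean level in WT was 6.21 to 6.59. Of the 7 cholangiocyte markers, 4 were well above background on all WT arrays and 6 on all HepKO arrays. The cholangiocyte and erythroid lists are too short to set against the shares over all genes. With the scanner software's ratios, which do not add an offset, 14 lymphocyte markers passed (median 2.89) and 5 cholangiocyte markers did (median 2.65). Without male pair replicate 2 the stellate count was 2, the neutrophil count 1 and the erythroid count 1, and without female pair replicate 1 the neutrophil count was 1. Among 13 hepatocyte markers 1 was higher and 1 lower (median -0.046), counts too small to set against the shares over all genes. Macrophages, endothelial cells and fibroblasts can express Gdf15 or Fgfr1, and the part of these cells in the ratios of both genes was not tested.

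Most of the other FGF ligand genes gave little signal in these preparations. Of 19 FGF ligand genes with a named probe, 16 had no probe that passed the filter on dim probes, Fgf15 among them. Fgf1, a mitogen that also acts on hepatocyte metabolism, was the only 1 of the 3 measured that passed, and it was lower at -1.31 ± 0.19 (limma adjusted p = 0.027), with -1.69, -1.43, -1.08 and -1.04 on the 4 arrays. Fgf23 was at -0.24 and Fgf8 at -0.11. The list median was -0.24, -1.37 with the scanner software's ratios and -0.019 without the filter. Of the remaining receptor genes, Fgfrl1, a receptor without a kinase domain, stood at -0.66 ± 0.14 (adjusted p = 0.0539), Fgfr3 at -0.45 and Fgfr2 at 0.087. None of these 3 passed, but Fgfrl1 did without male pair replicate 1 (adjusted p = 0.0486). Kl and Lctl, the relatives of Klb, had no probe above the filter.

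Of 16 measured genes that act below the FGF receptors, adaptors, feedback inhibitors and early targets among them, 1 was higher and none lower, against 12% and 3.71% of all genes. The list median was 0.29, against 0.083 over all genes. That gene was Spry1, a feedback inhibitor of receptor tyrosine kinases (0.97 ± 0.17, adjusted p = 0.0385), and the count was 0 when either male pair replicate 2 or female pair replicate 1 was left out. Spry1 passed in 9 of 16 alternatives and did not pass with the scanner software's ratios (limma adjusted p = 0.0655). The ERK phosphatase genes Dusp6 and Dusp4 stood at 1.25 ± 0.31 and 0.99 ± 0.27 (Dusp4 at 2.82 with the scanner software's ratios), and the early gene Egr1 at 1.43 ± 0.61, and these 3 did not pass. Egr1 was at 2.84 and 2.43 in the male pair, against 0.40 and 0.042 in the female.

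Of 8 genes of the bile acid feedback that FGF15 exerts through FGFR4 and beta-klotho, 1 was lower and none higher, with a median of -0.72. The shares over all genes were 3.71% and 12%, and 8 genes are too few to set against them. Cyp8b1, the sterol 12-alpha-hydroxylase, was lower at -1.16 ± 0.14 (limma adjusted p = 0.0208). Cyp7a1, the rate-limiting enzyme of bile acid synthesis, was at -1.83 in the male pair against -0.12 in the female, with a mean of -0.97 ± 0.45 that did not pass (adjusted p = 0.201). The bile acid transporter genes Abcb11 (-1.14 ± 0.25) and Slc10a1 (-0.998 ± 0.31) did not pass either. Abcb11 passed too when male pair replicate 1 was left out (adjusted p = 0.0404).

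Genes of the ATF4 and CHOP response, whose transcription factors induce both hormones, were higher in part. Of 32 measured, 8 passed as higher and none as lower, against 12% and 3.71% of all genes. The list median was 0.53, against 0.083 over all genes. Of the 32, 25 lay above 0, and the share of all genes above 0 was not counted. All 32 were well above background on all HepKO arrays, but only 26 on all WT arrays. The largest was Nupr1, a stress-induced nuclear protein, at 5.42 ± 0.26 (limma adjusted p = 0.01), with 6.72 and 5.02 in the male pair, against 5.30 and 4.64 in the female. The transcription factors Atf3 and Ddit3, the latter encoding CHOP, rose by 3.86 ± 0.44 and 3.04 ± 0.56, and Psat1, an enzyme of serine synthesis, by 2.27 ± 0.35. The Ddit3 call was lost without male pair replicate 2 (adjusted p = 0.0616) and without female pair replicate 1 (0.0529), and in 6 of 16 alternatives in all. Psat1 was at 4.17 with the scanner software's ratios. Atf4 itself, named after its values were seen, was at -0.06 ± 0.23, with 0.31 in the male pair against -0.44 in the female. The list median was 0.64 in the male pair against 0.43 in the female, and 0.87 with the scanner software's ratios.

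PPARA and fasting genes, listed because PPARA is the other known input to Fgf21, were lower in part. Of 22 measured, 6 were lower and none higher, against 3.71% and 12% of all genes, with a median of -0.40. The fatty acid hydroxylase genes Cyp4a31 and Cyp4a10 stood at -1.60 ± 0.23 and -1.38 ± 0.20, and both passed. With the mean of all kept probes of a gene, Cyp4a31 was at -0.90 and did not pass. The Cyp4a paralogs are so alike that these probes may read more than 1 of them. Ppara, named after its values were seen, was at -0.82 ± 0.20 and did not pass (limma adjusted p = 0.0704).

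Of 18 measured p53 targets and regulators, listed because p53 induces Gdf15, 9 were higher and none lower, against 12% and 3.71% of all genes. Their median was 1.02. Phlda3, an inhibitor of AKT, was at 3.15 ± 0.16 and Cdkn1a, the cell cycle inhibitor p21, at 2.83 ± 0.16. On the arrays Phlda3 read 3.74 and 2.86 in the male pair, then 3.41 and 2.59 in the female. Cdkn1a read 3.37 and 2.64, then 2.78 and 2.55. Gadd45a (2.17 ± 0.46, limma adjusted p = 0.0515) and Btg2 (1.90 ± 0.40, adjusted p = 0.0514) did not pass, but passed in 7 and 8 alternatives, among them without male pair replicate 1 (0.0273 and 0.0264) and without female pair replicate 2 (0.0343 and 0.0292). Leaving out male pair replicate 2 gave a count of 4, leaving out female pair replicate 1 also gave 4, and the count was 5 with the scanner software's ratios. With the background model fitted on all spots, or without the filter on dim probes, no gene of any list passed in limma, against 56 and 69 at an unadjusted p below 0.05. The macrophage marker median on the same arrays was 2.00, and the part of other cells in these lists was not tested.

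**Figure D4:**
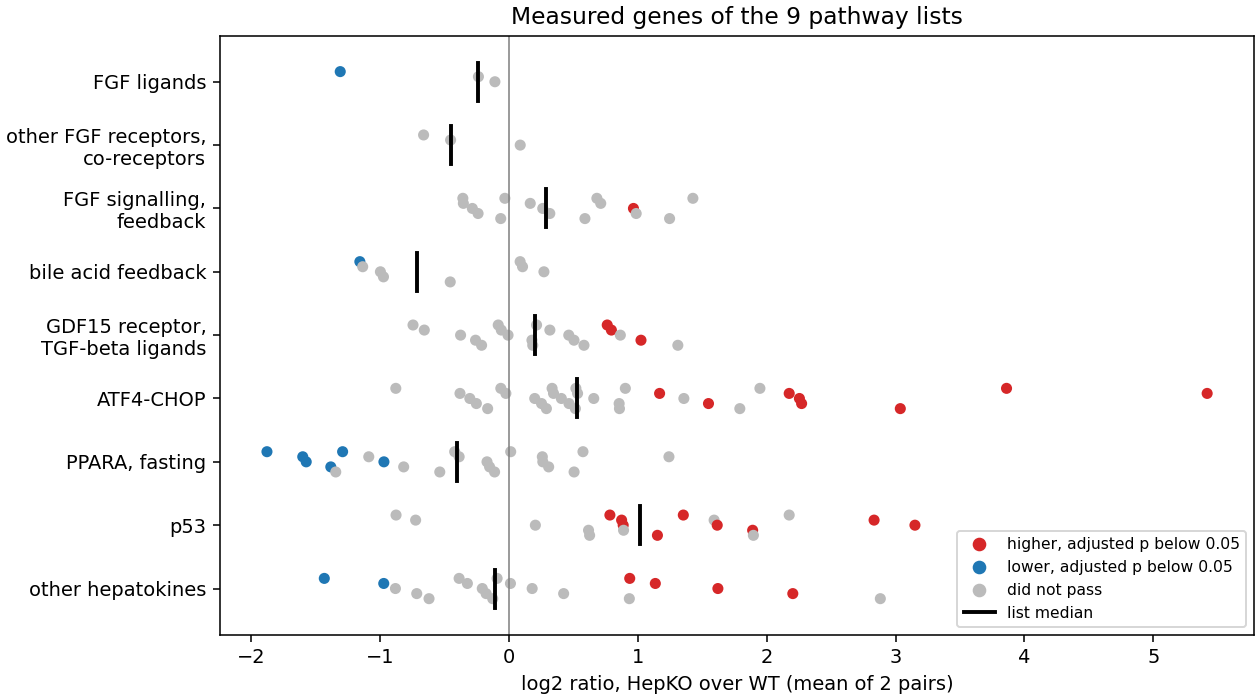
Each point is 1 measured gene of 9 pathway lists, at its mean log2 ratio of HepKO to WT over 2 pairs, coloured by its call (red, higher; blue, lower; grey, did not pass), with the list median as a black bar. The ATF4-CHOP list reaches 5.42, and the PPARA and fasting list has 6 genes called lower and none higher.

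Of the TGF-beta family and GDF15 processing list, 3 of 20 measured genes were higher and none lower (median 0.20). Over all genes 12% were higher and 3.71% lower, so the higher count lies near the share over all genes. Tgfb1 (1.02 ± 0.15), Gdf10 (0.79 ± 0.14) and Bmp6 (0.76 ± 0.14) passed, with adjusted p-values of 0.0284, 0.0385 and 0.0413. Gdf10 was at 1.52 with the scanner software's ratios. The median was 0.35 with the scanner software's ratios and 0.040 without the filter, and the count was 1 without male pair replicate 2 and 1 without female pair replicate 1. Inhbb, an activin subunit, was at 2.36 in the male pair against 0.26 in the female (mean 1.31 ± 0.54, or 2.42 with the scanner software's ratios) and Bmp4 at 0.86 ± 0.29, and these 2 did not pass. No probe was named for Gfral, the GDF15 receptor, and Ret, its co-receptor, had no probe above the filter. Endothelial and stellate cells are sources of several of these ligands, and their markers had medians of 1.09 and 0.76. The part of these cells in the ligand ratios was not tested.

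The genes whose ratios on the 4 arrays lay nearest to those of Fgf21, by Euclidean distance, were Entpd2 (0.12), Tmem86a (0.16), Esco2 (0.21), Smtn (0.23) and Tnip1 (0.24), with mean ratios from 1.61 to 1.77. All 5 passed the test, with adjusted p-values between 0.0142 and 0.0153. Nearest to Gdf15 were Pou3f1 (0.27), Clec4e (0.33), Plin2 (0.42), Gstp1 (0.46) and H2bc14 (0.49), with means from 1.21 to 1.38, none of which passed. H2bc14 did without male pair replicate 1 (adjusted p = 0.0464) and Gstp1 without female pair replicate 2 (0.0498). The nearness depends on the background correction: with the scanner software's ratios Esco2 was at 5.43 against 2.25 for Fgf21, and Pou3f1 and Clec4e at 3.52 and 3.51 and past the threshold, against at most 1.56 for Gdf15 under any setting. Plin2, a lipid droplet coat protein and a gene of the PPARA list, was at 2.15 and 1.68 in the male pair, against 0.67 and 0.47 in the female. These distances rest on 4 arrays of 4 mice and only describe genes with ratios of like size. The test used the same ratios, so whether the nearest genes passed followed largely from the choice and is no separate result.

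**Figure D5:**
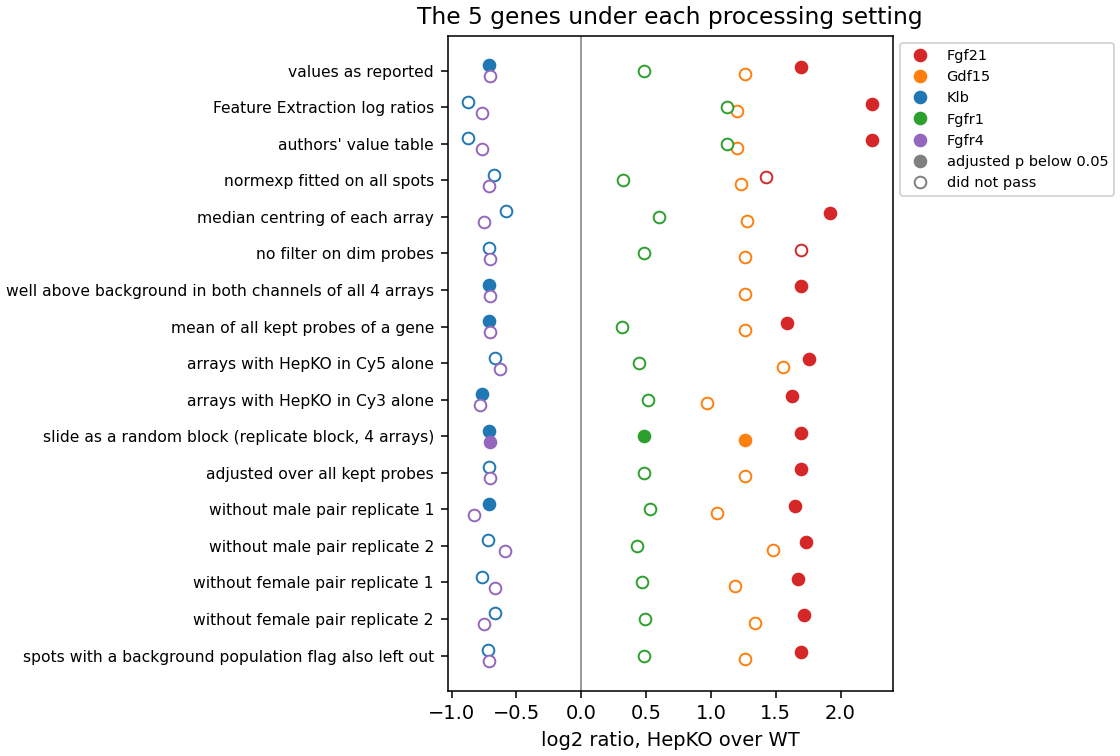
Log2 ratio of HepKO over WT of the 5 genes under each of 17 processing settings, filled where the adjusted p was below 0.05. Every point keeps its side of 0, Fgf21 passes in 15 settings and Klb in 6, and Fgfr1 has no value where its probe fails the strict filter.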

How the data were processed

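Total RNA of hepatocyte preparations was measured on 4 Agilent 2-colour arrays. Per the file headers, signals were extracted from the scans by Agilent Feature Extraction, version 10.2.1.3. The deposited intensity values used here are the mean of each spot and the median of its local background, with nothing subtracted. Each file also holds deposited log10 ratios, made by that software after background subtraction and dye normalization. The authors' value table holds the same log10 ratios turned to HepKO over WT (correlation of 1 or -1 with each array, column medians 0). Nothing in the sources used here says how it was made.

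Flagged spots (178 to 260 of 45018 per array) were left out. Signals were corrected with normexp (offset 50) and normalized by loess within each array in limma 3.58.1 under R 4.3.3, with control spots at weight 0. Ratios were oriented as HepKO over WT on the log2 scale, spots of a probe averaged, and dye-swapped arrays averaged to 1 value per pair. Levels are channel intensities after loess and Aquantile. A bound ("at least") sets the group above background against the lowest signal well above background, or the probe's own where higher. Probes well above background on both arrays of a pair in 1 genotype were kept (22839 of 41174), and 22951 probes were named by RefSeq accession (GRCm38.p6). Of several kept probes of a gene, the brightest was used. Between 48.2% and 58.6% of probes were well above background, and no spot was saturated. The number of arrays limits the precision.

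The test was limma's moderated test (eBayes) on 2 pair values, with Benjamini-Hochberg adjustment over 11505 genes and a threshold of 0.05. Errors are moderated SEs. With 1 residual degree of freedom per gene against 3.11 prior degrees of freedom, errors and p-values rest more on the spread between pairs over all genes than on a gene's own 2 pairs. The fit was tested on simulated data. Promoter sequences are from RefSeq (GRCm38.p6), found for 4 of 5 genes. The members, gene lists and alternatives were chosen with earlier results of these data known. Named genes were the members, the 4 genes of each list with the largest absolute ratio, and the 5 nearest to Fgf21 and Gdf15 over 4 arrays, with RIKEN, Gm, LOC and accession-type names passed over. Atf4, Ppara, Bmp6, genes with no measured probe and the single cell type markers were named after their values were seen. Some genes that this rule names are not reported here. Lists are described by counts and medians, with no set test.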

Additional observations from a re-analysis of the deposited data

Results flagged for a closer look

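The 6 genes described here had ratios of opposite sign in the pairs on every array, among them Fgfr2 and Fgfr3, which encode further FGF receptors. They are a selection. Other genes showed the same, such as Fos, with 2.11 and 1.78 in the male pair against -0.34 and -0.71 in the female. The share of all genes with this pattern was not counted. Fgfr2 had a log2 ratio of 0.35 in the male pair and -0.18 in the female pair. Fgfr3 was at -0.96 in the male pair, from -0.64 and -1.29 on its arrays, and at 0.057 in the female pair. Pnpt1, by its brighter probe, was at 0.18 in the male pair but at -0.38 in the female, and Atf4 at 0.31 but -0.44. The hepatocyte genes Alb and Ttr showed the reverse order, Alb at -0.60 in the male and 0.35 in the female mice, and Ttr at -0.069 and 0.56. None of these 6 genes passed limma's test of the mean, and with 1 replicate per pair their differences between the pairs were not tested.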

How the results depend on the processing

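Fgf21, Gdf15, Klb and Fgfr4 kept their sign in 16 of 16 alternatives and Fgfr1 in 15 of 15. With normexp fitted on all spots, 0 genes passed in limma (3010 at an unadjusted p below 0.05), and 0 of 142 genes of the pathway lists (56 unadjusted), with Fgf21 at 1.43 and Klb at -0.67. Without the filter on dim probes, 0 of 16358 genes passed (4638 unadjusted) and 0 of the lists (69 unadjusted), with Fgf21 at 1.69 and Klb at -0.71. Klb also did not pass with the Feature Extraction log ratios (-0.87), the authors' value table (-0.87), median centring (-0.58), HepKO in Cy5 alone (-0.66), adjustment over all kept probes (-0.71), or with background population flags also left out, a setting chosen after seeing the data (-0.72). With slide as a random block over 4 arrays (the replicate block), 4077 genes passed, 71 of them in the lists, and Gdf15 (1.26, adjusted p = 0.0491), Fgfr1 (0.48, 0.0462) and Fgfr4 (-0.71, 0.0281) passed too. That fit counts 4 arrays of 2 pairs, and HepKO and WT partners already share each array. Leaving out 1 array at a time gave 1136 (without male pair replicate 2) to 2157 genes and 23 to 46 list genes against 35. The ranges were 1.65 to 1.74 for Fgf21, 1.04 to 1.48 for Gdf15, -0.77 to -0.66 for Klb, 0.43 to 0.53 for Fgfr1 and -0.83 to -0.59 for Fgfr4. The causes were not tested. The median of the 4 measured erythroid markers, -0.25, turned to 0.54 with the Feature Extraction log ratios and the value table and to 0.034 without the filter. Fgfr1 is limited by a signal near background.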

Other observations

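Other genes for proteins that the liver secretes, or that act on them, moved in both directions. Of 20 measured, 4 were higher and 2 lower, against 12% and 3.71% of all genes. The median was -0.11, or -0.46 with median centring, and 3 passed with the scanner software's ratios. Gpnmb, a glycoprotein that macrophages also make and that the macrophage list holds too, was not well above background in WT on any array and at least 4.52-fold higher in HepKO (limma adjusted p = 0.0117), and at a log2 ratio of 5.53 with the scanner software's ratios. Sparc, a matrix protein also made by stellate and endothelial cells, was at 1.62 ± 0.30 and did not pass without male pair replicate 2 (adjusted p = 0.0535) or with the scanner software's ratios. Igfbp2, an IGF-binding protein, was lower at -1.43 ± 0.24. Igfbp1, a stress- and fasting-induced IGF-binding protein, had the highest mean of the list, 2.88 ± 0.83, and did not pass (adjusted p = 0.0922). It was at 5.31 and 3.78 in the male pair, against 1.25 and 1.19 in the female.

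Within WT, the Fgf21 probe stood at a net intensity of 43.8 and 36.7 above local background in the male mouse and 146 and 153 in the female mouse. The Gdf15 probe was at 1312 and 1603 in the WT male and 1621 and 1687 in the WT female. With 1 WT mouse per pair, on different slides and of different ages, these WT differences have no test.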
